A study of Mus musculus with 12 samples.

Results

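The liver X receptor (LXR) target genes of lipid transport were 9 genes: Abca1, Abcg1, Srebf1, Mylip, Scd1, Scd2, Lpcat3, Apoe and Smpdl3a. They were taken by gene name, as classical targets of the dimer of LXR and the retinoid X receptor (RXR), from 54532 genes in the deposited tables. All 9 passed the low-count filter of edgeR, as did 15504 genes in all. RNA-seq was performed on 12 mammary tumors, 1 library per tumor, to ask how agonists of RXR change transcription in the tumor. The tumors came from female mice of the MMTV-Neu genotype, in which the mouse mammary tumor virus promoter drives the neu (Erbb2) oncogene in the mammary epithelium and tumors arise with time. All 3 groups carried the transgene and already had a tumor when the diets began. Control mice (4 tumors) ate powdered chow without drug, MSU-42011 mice (4 tumors) ate chow with the RXR agonist MSU-42011 at 100 mg per kg diet, and bexarotene mice (4 tumors) ate chow with bexarotene, an RXR agonist in clinical use, at the same dose. Per the study's methods, the chow was mixed with a vehicle of ethanol and coconut oil, with or without drug dissolved in it. Feeding lasted 10 days, and the ages of the mice were not given in the sources used here.

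In the coordinates of the tables, Abca1 lies on chromosome 4 from 53030787 to 53159895 on the minus strand, Abcg1 on chromosome 17 from 31057698 to 31115777 on the plus strand, Apoe on chromosome 7 from 19696109 to 19699188 on the minus strand, Mylip on chromosome 13 from 45389742 to 45412022 on the plus strand, Srebf1 on chromosome 11 from 60199089 to 60222581 on the minus strand, Lpcat3 on chromosome 6 from 124663027 to 124704418 on the plus strand, Smpdl3a on chromosome 10 from 57794335 to 57811830 on the plus strand. Scd2 (chromosome 19, 44293676 to 44306864, plus strand) and Scd1 (chromosome 19, 44394451 to 44407709, minus strand) are neighbors, and the remaining 7 are on 7 other chromosomes. The build was not given in the sources used here, but the start and end of 6 of the 9 genes (all but Abcg1, Scd1 and Scd2) were identical to those of GENCODE M21 on GRCm38. All 9 are protein-coding.

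LXRα (Nr1h3) and LXRβ (Nr1h2) are nuclear receptors that are switched on by oxysterols, the oxidized forms of cholesterol, and that bind DNA as dimers with RXR. These dimers are called permissive because an RXR agonist alone can also activate them. When cells hold too much cholesterol, LXR/RXR turns on cholesterol export through the transporters ABCA1 and ABCG1 to apolipoproteins such as APOE, lowers uptake through MYLIP (also called IDOL), which marks the LDL receptor for degradation, and turns on fatty acid synthesis through SREBF1, the stearoyl-CoA desaturases SCD1 and SCD2 and the phospholipid-remodeling enzyme LPCAT3. In human macrophages, LXR also turns on SMPDL3A, a secreted phosphodiesterase. Control of the mouse gene by LXR was not tested here.

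LXR/RXR dimers bind a pair of AGGTCA repeats set 4 bases apart, the DR4 element. The promoter windows in RefSeq (GRCm38.p6) were read to see whether such letters lie near the starts of these genes. By symbol, windows were found for 5 of the 9 genes (Abca1, Srebf1, Lpcat3, Apoe and Mylip; 9 windows), and Abcg1, Scd1, Scd2 and Smpdl3a were not searched. The 250 bases before each start were searched on both strands for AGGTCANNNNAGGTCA, in which 12 letters are fixed. Abca1 and 1 of the 3 Srebf1 windows came closest, each with 3 mismatches, while the other 7 windows had 4 to 6. A match this close was found in 18.5% of all 32851 windows, so it was a common one. The letters that the Abca1 and Srebf1 sites share, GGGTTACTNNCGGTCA (14 fixed letters), were rare: the windows of 3 genes held them on either strand, 0.00913% of all windows. Because the pattern was read from Abca1 and Srebf1, their own matches follow from the choice, and the third gene was Fasn, the fatty acid synthase, which is also a known LXR target. These 3 sites are shown because a transporter gene and lipogenic genes share these letters, with the site in capitals as read along each gene's own strand:
Abca1 (chr4:53159915-53159994, minus strand): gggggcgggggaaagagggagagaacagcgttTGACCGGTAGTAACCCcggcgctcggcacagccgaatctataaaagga
Srebf1 (chr11:60210606-60210685, minus strand): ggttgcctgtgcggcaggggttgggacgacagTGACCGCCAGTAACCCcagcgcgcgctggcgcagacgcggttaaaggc
Fasn (chr11:120824725-120824797, minus strand): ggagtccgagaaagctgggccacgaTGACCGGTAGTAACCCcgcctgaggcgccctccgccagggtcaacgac
The Abca1 and Fasn sites were identical in 16 of 16 letters, and the Srebf1 site shared 14 of 16 with each. The sites ended 51 bases before the Abca1 start, 166 bases before the start of that Srebf1 window and 209 bases before the Fasn start. The Srebf1 site (60210638 to 60210653) lies inside the gene, which runs from 60199089 to 60222581 on the minus strand. The start beside it is therefore an internal one, and the counts per gene do not separate the starts of Srebf1. Binding was not measured here.

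The tumors were sequenced to 16583413 to 25925027 counted reads, and the 9 genes took 0.497% to 1.38% of them. Every one of the 9 had at least 295 reads in every tumor, so counting error was small beside the spread between tumors. 1 library stood apart from the rest. Bexarotene replicate 1 lay at -103 on the first principal component (38.2% of the variance), against -13.7 to 28.0 for the other 11 tumors, and its summed fibroblast markers were at 7351 CPM (counts scaled to a common library size) against 76.3 to 395 in control and MSU-42011 tumors. Its macrophage markers summed to 1652 CPM, against 204 to 711. Its luminal epithelial markers, a check of the tissue label, were lowest at 2683 CPM, against 3988 to 5464 CPM. It was also highest for adipocyte (115 CPM, against 29.9 to 51.3), endothelial (354 CPM, against 65.0 to 180.3) and skeletal muscle markers (236 CPM, against 1.26 to 116). For the 9 genes and the lists of related genes, bexarotene estimates are therefore also given without this tumor. Of the adipocyte markers, 6 of 9 (Adipoq, Lep, Plin1, Cidec, Retn and Pck1) were below the filter and at 0 reads in at least 1 tumor. T cell markers summed to 1.72 to 7.24 CPM. In bulk tumor RNA, fewer cells of a type and less RNA per cell cannot be told apart.

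The 9 genes spanned a wide range of expression. In control tumors the level per length, as deposited FPKM (mean ± SD, n = 4), was 1848 ± 719 for Apoe, 1434 ± 199 for Srebf1 and 451 ± 209.7 for Scd1. Apoe was the 25th most abundant of all genes in the mean over 12 tumors and Srebf1 the 39th. Smpdl3a (140.2 ± 20.6 FPKM), Scd2 (115 ± 38.8) and Lpcat3 (67.5 ± 6.77) formed a middle tier. Mylip (24.7 ± 7.89 FPKM) and the transporters Abcg1 (17.1 ± 8.18) and Abca1 (12.8 ± 6.51) were lowest. The control ranges of Apoe and Srebf1 overlapped, as did those of Smpdl3a and Scd2, of Scd2 and Lpcat3, of Mylip and Abcg1, and of Abcg1 and Abca1. Those of Srebf1 and Scd1, of Scd1 and Smpdl3a, and of Lpcat3 and Mylip did not. The order in MSU-42011 tumors was the same, and in bexarotene tumors Scd2 stood above Smpdl3a with overlapping ranges. This ladder depends on the gene length: the deposited FPKM of Srebf1 rests on 1465 bases where the tables list 5634. Per listed length, Srebf1 in control tumors came to 373 ± 51.8, below Scd1 at 451 ± 209.7, and Scd2 stood above Smpdl3a.

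**Figure D1:**
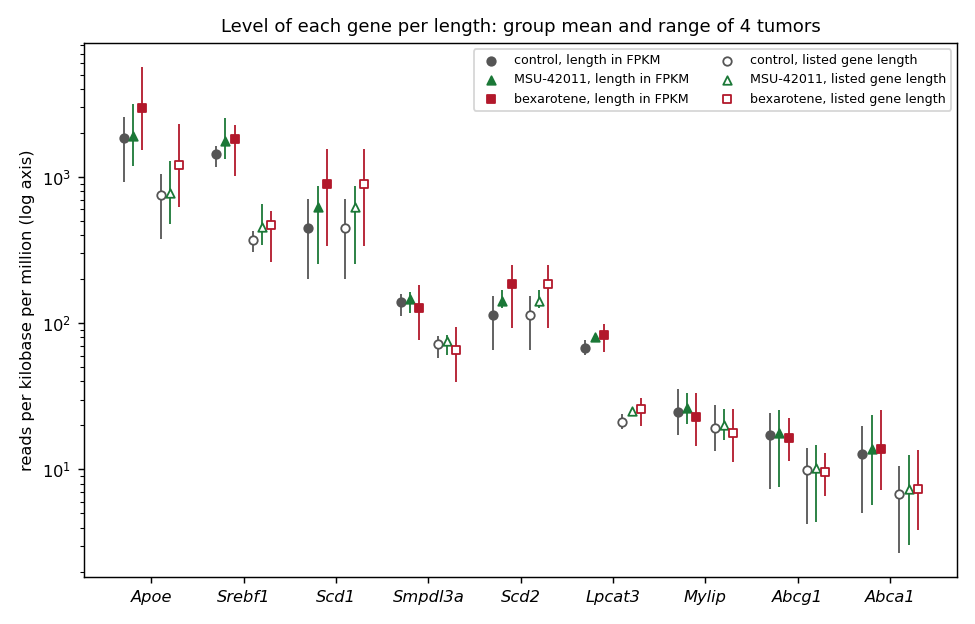
Level per length of the 9 genes on a log axis, with filled symbols for the deposited FPKM and open symbols for the same reads divided by the listed gene length; symbols are means of 4 tumors and bars run from the lowest to the highest tumor. Apoe, Srebf1 and Scd1 sit above the rest with either length, while Srebf1 and Scd1 change places.

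Of the 5 receptor genes, 4 were detected in all 12 tumors. Nr1h2, which encodes LXRβ, measured 103 to 140 CPM, and Nr1h3, which encodes LXRα, 3.29 to 7.31 CPM. Rxra ran from 58.6 to 126 CPM and Rxrb from 57.6 to 86.3 CPM. Rxrg had 0 to 6 reads and did not pass the filter. Of the 4 receptor genes tested, 0 were called in any comparison by edgeR's quasi-likelihood test with Benjamini-Hochberg adjustment, and 0 had an unadjusted p under 0.05. Rxra had a log2 fold change of -0.28 with bexarotene, and of -0.48 without bexarotene replicate 1 (unadjusted p = 0.0449 from edgeR; adjusted p = 0.978 by edgeR's quasi-likelihood test with Benjamini-Hochberg adjustment). The corepressor Ncor1, which holds unliganded LXR/RXR silent, was not called either. All 4 MSU-42011 tumors stood above all 4 control tumors for Ncor1 (128.9 to 147 CPM against 113 to 128.9 CPM, the nearest pair at 128.93 and 128.87 CPM; 1.16% of all genes were higher in this way), at a log2 fold change of 0.16 and an unadjusted p of 0.0906 from edgeR.

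None of the 9 genes passed an adjusted p of 0.05 with either agonist. In MSU-42011 against control tumors, 0 of 9 were called by edgeR's quasi-likelihood test with Benjamini-Hochberg adjustment, where 0% of all genes tested were called. DESeq2 also called 0 of 9, against 0.00651% of all genes. At an unadjusted p under 0.05 the count was 0 of 9 in this comparison (1.99% of all genes). The estimates were higher for 7 and lower for 2, with a median log2 fold change of 0.03 over the 9 genes and 0.0016 over all genes. Leaving out 1 tumor at a time, this median ran from -0.02 (without MSU-42011 replicate 1) to 0.24 (without control replicate 2). In bexarotene against control tumors, 0 of 9 were called (0% of all genes by edgeR; DESeq2 called 0 of 9, against 0.0399% of all genes). Here 1 of 9, Scd2, was higher at an unadjusted p under 0.05, where 4.48% of all genes were. The estimates were higher for 6 and lower for 3, with a median of 0.26 against 0.03 over all genes. When bexarotene replicate 1 was left out, 5 of 9 were higher and the median was 0.13, and it was 0.14 without bexarotene replicate 4. The highest median with 1 tumor left out was 0.34, without control replicate 2, where 8 of 9 were higher. In MSU-42011 against bexarotene tumors, at the same dose and time, 0 of 9 were called (0% of all genes by edgeR, 0.0261% by DESeq2, which also called 0 of 9). At an unadjusted p under 0.05 there were 0 of 9, against 3.95% of all genes, and the median was -0.08 against -0.02 (-0.16 without bexarotene replicate 1). In the test for any difference among the 3 groups, edgeR and DESeq2 each called 0 of 9, where they called 0% and 0.0332% of all genes. In each of the 3 comparisons the ranges of the groups overlapped for all 9 genes, where 1.97%, 2.03% and 1.17% of all genes had ranges that did not. The comparisons share tumors, the controls in the first pair and each treated group with the third, so they are not independent of one another.

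**Figure D2:**
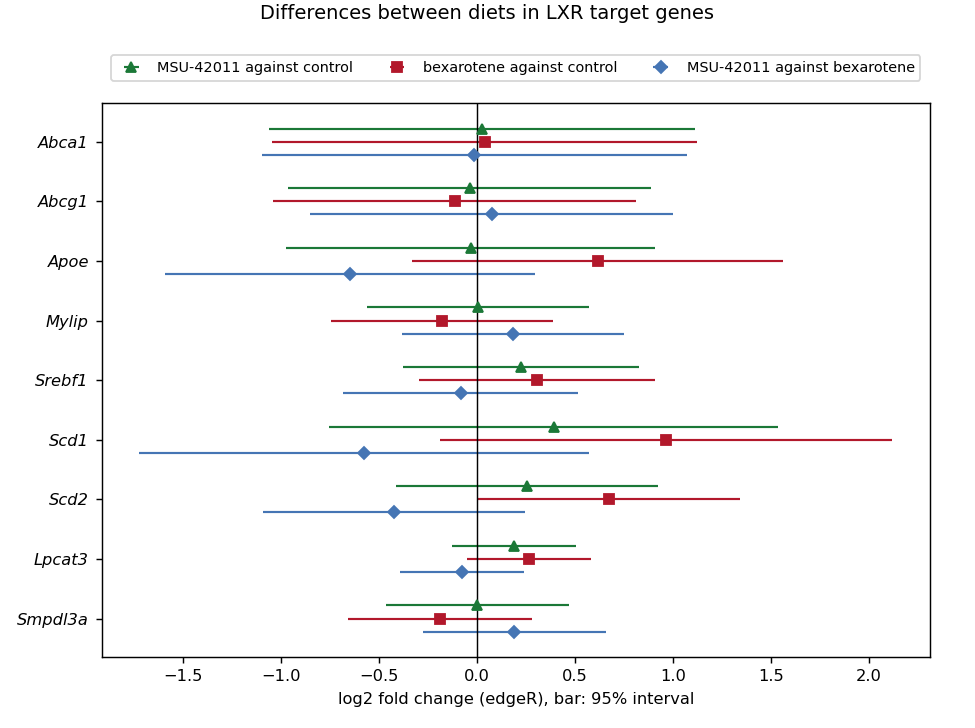
Log2 fold change of each gene in the 3 comparisons, with bars for the 95% interval from edgeR (4 tumors per group). The intervals cross 0 for all but Scd2 with bexarotene, which runs from 0.01 to 1.34, and the transporters Abca1 and Abcg1 have estimates near 0 with wide bars.

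The cholesterol exporters gave nearly the same mean in all 3 groups while differing widely from tumor to tumor. Abca1, which loads cholesterol and phospholipid onto lipid-poor apolipoproteins, measured, in CPM, 91.3, 114, 27.7 and 57.8 in control replicates 1 to 4, 85.7, 31.6, 124 and 54.7 in MSU-42011 replicates 1 to 4, and 136, 49.2, 71.6 and 42.3 in bexarotene replicates 1 to 4. Each group held tumors at both ends of the range, and the highest tumor of all, bexarotene replicate 1, exceeded the lowest, control replicate 3, by 4.90-fold. The group means were 72.7 ± 37.9 (control), 74.1 ± 40.2 (MSU-42011) and 74.7 ± 42.5 CPM (bexarotene; mean ± SD, n = 4). The log2 fold change was 0.03 (SE 0.50, 95% interval -1.06 to 1.11) with MSU-42011 and 0.04 (SE 0.50, 95% interval -1.04 to 1.12) with bexarotene. Without bexarotene replicate 1 the bexarotene estimate was -0.42 (95% interval -1.46 to 0.62), a change of sign with an interval that still included 0. Abcg1, which exports cholesterol to HDL particles, measured, in CPM, 55.7, 60.1, 17.0 and 33.1 in control replicates 1 to 4, 58.8, 17.9, 57.7 and 27.2 in MSU-42011 replicates 1 to 4, and 50.6, 30.8, 43.2 and 28.5 in bexarotene replicates 1 to 4. The same control tumor, replicate 3, was lowest, and control replicate 2 was highest. Its log2 fold change was -0.04 (95% interval -0.96 to 0.89) with MSU-42011 and -0.11 (-1.04 to 0.81) with bexarotene, or -0.28 without bexarotene replicate 1. Between the agonists, the differences were -0.01 (-1.10 to 1.07) for Abca1 and 0.08 (-0.85 to 1.00) for Abcg1. Leaving out bexarotene replicate 1, they were 0.45 (-0.60 to 1.49) and 0.24 (-0.75 to 1.23), with the sign turned for Abca1. With all tumors, the intervals include a change of 1 on the log2 scale or close to it in either direction, so a 2-fold effect of either agonist on Abca1 was not resolvable with 4 tumors per group.

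Apoe, the apolipoprotein that accepts exported cholesterol and is abundant in macrophages, measured, in CPM, 1981, 2339, 801 and 1504 in control replicates 1 to 4, 1576, 1255, 2650.5 and 1007 in MSU-42011 replicates 1 to 4, and 4709, 2397, 1623 and 1420.5 in bexarotene replicates 1 to 4. Bexarotene replicate 1 was far above all others, and the remaining bexarotene tumors lay inside the range of the MSU-42011 tumors. The group means were 1656 ± 665, 1622 ± 724 and 2537 ± 1508 CPM in control, MSU-42011 and bexarotene tumors. The log2 fold change was -0.03 (95% interval -0.97 to 0.91) with MSU-42011 and 0.62 (-0.33 to 1.56; adjusted p = 0.882 by edgeR's quasi-likelihood test with Benjamini-Hochberg adjustment) with bexarotene. Without bexarotene replicate 1 the latter came to 0.13 (-0.69 to 0.95). The estimate for MSU-42011 against bexarotene tumors was -0.65 (-1.59 to 0.30), or -0.16 (-0.98 to 0.66) without that tumor, and both intervals included 0. Mylip, the ubiquitin ligase that removes the LDL receptor, measured, in CPM, 65.0, 93.2, 42.8 and 54.7 in control replicates 1 to 4, 70.8, 51.6, 79.8 and 54.5 in MSU-42011 replicates 1 to 4, and 80.1, 49.8, 57.5 and 38.4 in bexarotene replicates 1 to 4. Its group ranges overlapped throughout, with control replicate 2 highest and bexarotene replicate 4 lowest. The log2 fold change of Mylip was 0.01 (-0.56 to 0.57) with MSU-42011 and -0.18 (-0.74 to 0.39) with bexarotene, and -0.40 (-0.94 to 0.15) without bexarotene replicate 1. Between the agonists the estimate for Mylip was 0.18 (-0.38 to 0.75), or 0.40 (-0.14 to 0.94) without that tumor.

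With all 12 tumors, the desaturases had the highest estimates with bexarotene among the 9 genes, followed by Apoe, but this order rested on single tumors. Apoe (0.81) stood above both Scd1 (0.51) and Scd2 (0.45) without bexarotene replicate 4, and above Scd2 without control replicate 1 or 2 or bexarotene replicate 3. Scd1, the desaturase that makes oleate and palmitoleate, measured, in CPM, 2388, 3589, 960.4 and 2069 in control replicates 1 to 4, 3352, 1237, 4043 and 3179 in MSU-42011 replicates 1 to 4, and 1551, 2493, 5609 and 7946 in bexarotene replicates 1 to 4. Bexarotene replicates 3 and 4 were the highest of all 12 tumors, but bexarotene replicates 1 and 2 lay within the control range. The group means were 2252 ± 1081, 2953 ± 1203 and 4399.6 ± 2932 CPM in control, MSU-42011 and bexarotene tumors. The log2 fold change was 0.97 (SE 0.53, 95% interval -0.19 to 2.12) with bexarotene (adjusted p = 0.839 by edgeR's quasi-likelihood test with Benjamini-Hochberg adjustment; exact two-sided permutation p = 0.229, n = 4 per group) and 0.39 (-0.75 to 1.54) with MSU-42011. Scd2, its paralogue, measured, in CPM, 578, 372, 830.2 and 772 in control replicates 1 to 4, 911, 696, 715 and 723 in MSU-42011 replicates 1 to 4, and 482, 1024, 1114 and 1455 in bexarotene replicates 1 to 4. Bexarotene replicates 2 to 4 were the 3 highest tumors of all, and bexarotene replicate 1 was the second lowest. The log2 fold change of Scd2 was 0.67 (SE 0.31, 95% interval 0.01 to 1.34) with bexarotene, with an unadjusted p of 0.0485 and an adjusted p of 0.773 by edgeR's quasi-likelihood test with Benjamini-Hochberg adjustment, and an exact two-sided permutation p of 0.171 (n = 4 per group; 0.0286 is the smallest possible). With MSU-42011 it was 0.25 (-0.41 to 0.92), and all 4 tumors lay above the control mean of 638 CPM. The differences between the agonists were -0.58 (-1.72 to 0.57) for Scd1 and -0.42 (-1.09 to 0.25) for Scd2, and that for Scd1 was -0.86 (-1.91 to 0.19) without bexarotene replicate 1. The desaturases share some sequence, with 4.56% of the 50-base words in Scd1 transcripts also found in another gene, mostly Scd2, and 3.97% the other way. Even so they differed from each other: the ratio of Scd1 to Scd2 FPKM ran from 1.30 in control replicate 3 to 10.9 in control replicate 2.

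Srebf1, the transcription factor that drives fatty acid synthesis and is itself switched on by LXR, measured, in CPM, 1757, 2504, 2017 and 2356 in control replicates 1 to 4, 1914, 2127, 3545 and 2509 in MSU-42011 replicates 1 to 4, and 1422, 3183, 2545 and 3533 in bexarotene replicates 1 to 4. MSU-42011 replicate 3 and bexarotene replicate 4 were highest, and bexarotene replicate 1 was lowest of all. Its group means were 2158 ± 336, 2524 ± 724 and 2671 ± 928 CPM in control, MSU-42011 and bexarotene tumors. The log2 fold change was 0.23 (-0.37 to 0.83) with MSU-42011, 0.31 (-0.29 to 0.91) with bexarotene and -0.08 (-0.68 to 0.52) between the agonists, the last at -0.29 (-0.78 to 0.20) without bexarotene replicate 1. Lpcat3, which places polyunsaturated fatty acids into membrane phospholipids, measured, in CPM, 66.9, 81.6, 69.1 and 64.6 in control replicates 1 to 4, 77.4, 86.7, 82.4 and 75.1 in MSU-42011 replicates 1 to 4, and 62.3, 87.0, 82.1 and 108 in bexarotene replicates 1 to 4. It was the steadiest of the 9 genes, with 1.73-fold between its lowest tumor (bexarotene replicate 1) and its highest (bexarotene replicate 4). All 4 MSU-42011 tumors lay above the control mean of 70.6 CPM, at a log2 fold change of 0.19 (-0.13 to 0.50) and an exact two-sided permutation p of 0.0857 (n = 4 per group). With bexarotene the log2 fold change was 0.26 (-0.05 to 0.58; adjusted p = 0.842 by edgeR's quasi-likelihood test with Benjamini-Hochberg adjustment), and the difference between the agonists was -0.08 (-0.39 to 0.24), or -0.20 (-0.47 to 0.07) without bexarotene replicate 1. The counts of both genes carry some doubt, since Srebf1 overlaps Rai1 and Lpcat3 overlaps Emg1 on the opposite strand and the use of strand in counting was not given in the sources used here. Rai1 had 14177 reads over all tumors against 585557 for Srebf1, while Emg1 had 21067 against 18756 for Lpcat3. Smpdl3a, the phosphodiesterase, ran from 81.0 to 190.3 CPM with both ends in bexarotene tumors, and its log2 fold change was 0.0025 (-0.47 to 0.47) with MSU-42011 and -0.19 (-0.66 to 0.28) with bexarotene, or -0.21 (-0.73 to 0.31) without bexarotene replicate 1. Between the agonists it was 0.19 (-0.28 to 0.66), or 0.21 (-0.30 to 0.73) without that tumor.

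**Figure D3:**
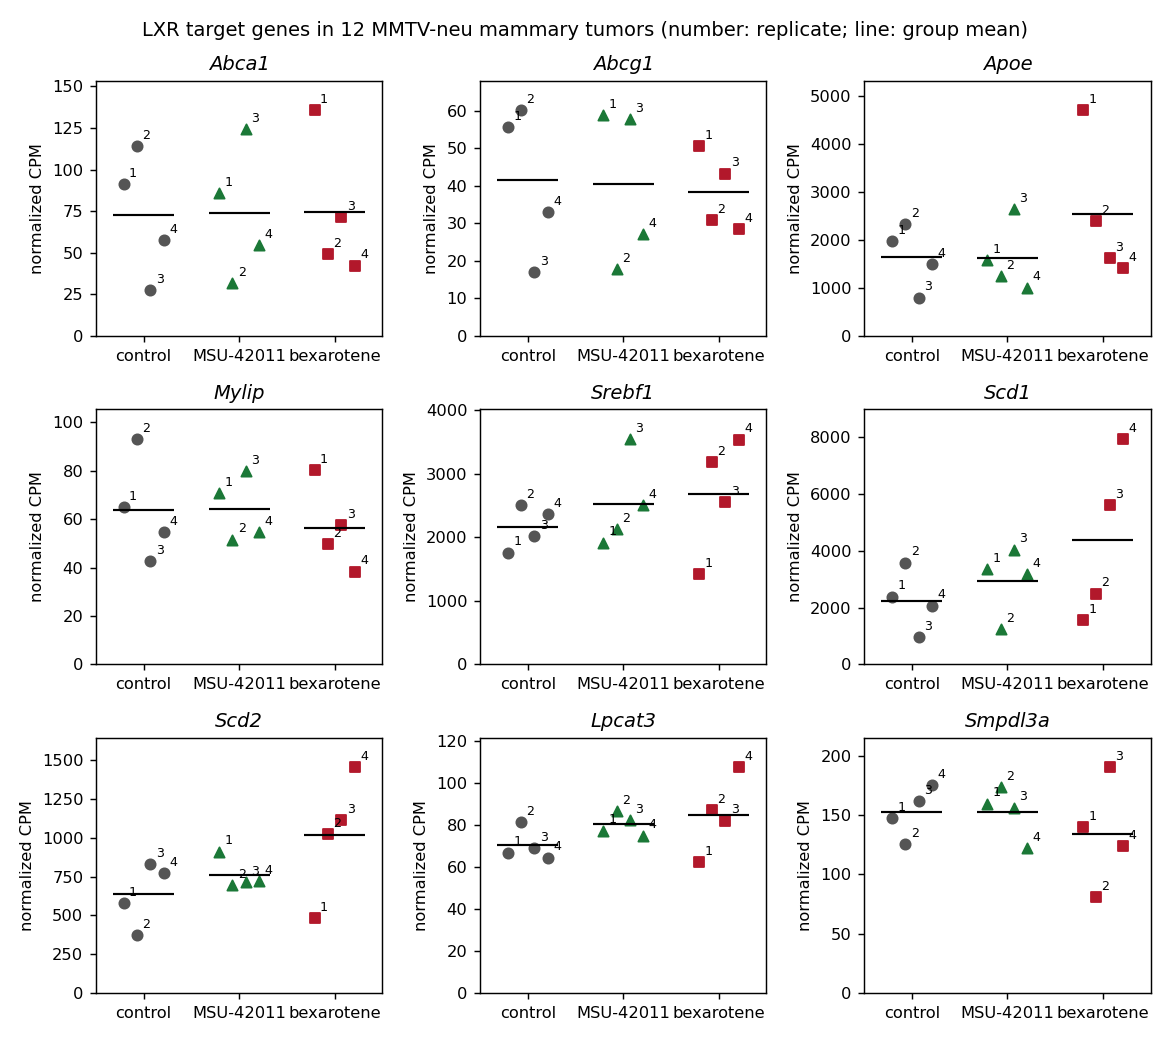
Normalized CPM of each of the 9 genes in each tumor, by diet (12 tumors; numbers are replicates, lines are group means, axes start at 0). Abca1, Abcg1 and Apoe are lowest in control replicate 3, Scd2 is highest in bexarotene replicates 2 to 4, and bexarotene replicate 1 is at the bottom for Srebf1 and Lpcat3 and at the top for Abca1 and Apoe.

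The estimates of the lipogenic genes moved upward when the outlying library was left out. Without bexarotene replicate 1, 4 of 9 genes (Srebf1, Scd1, Scd2 and Lpcat3) were higher with bexarotene than in control at an unadjusted p under 0.05 from edgeR, where 1.58% of all genes were. 0 of 9 were called after adjustment (0% of all genes; adjusted p = 0.978 for each of the 4 by edgeR's quasi-likelihood test with Benjamini-Hochberg adjustment). The 3 remaining bexarotene tumors averaged 1198 ± 227 CPM for Scd2, a log2 fold change of 0.91 (SE 0.24, 95% interval 0.38 to 1.43) over control. For Scd1 the estimate was 1.25 (0.20 to 2.30), for Srebf1 0.52 (0.03 to 1.00) and for Lpcat3 0.39 (0.12 to 0.66). The 3 tumors stood above all 4 controls for Srebf1, Scd2 and Lpcat3, that is for 3 of 9 genes where 2.09% of all genes did so, and overlapped them for Scd1. The exact two-sided permutation p was 0.0571 for each of those 3 genes (n = 3 against 4; the smallest possible is 0.0286). Against MSU-42011 tumors, Scd2 was the 1 of 9 that was lower with MSU-42011 at an unadjusted p under 0.05 (1.46% of all genes), at -0.65 (SE 0.24, 95% interval -1.18 to -0.13) and with ranges that did not overlap (1.64% of all genes were lower in this way). Leaving out another tumor gave smaller counts with bexarotene: Scd1 and Lpcat3 were higher at that threshold without control replicate 2 (3.19% of all genes were), Scd2 alone without control replicate 3 (4.13% of all genes) or 4 (2.99%), and 0 of 9 without any 1 of the remaining 8 tumors (3.82% to 6.57%). In MSU-42011 against bexarotene tumors, Apoe was the 1 of 9 that was lower at that threshold without MSU-42011 replicate 3, where 2.82% of all genes were. The count of genes with bexarotene at an unadjusted p under 0.05 thus ran from 0 to 4 by the tumor left out.

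Across the 12 tumors, Abca1, Abcg1, Mylip and, more loosely, Apoe formed a set that rose and fell together. Of 36 pairs, 6 were related at a Benjamini-Hochberg adjusted permutation p under 0.05 on the log2 CPM scale, 5 positively and 1 negatively. The exporters Abca1 and Abcg1 were the closest pair: Pearson's r was 0.95 (permutation p = 1e-05, adjusted p = 0.00036) and Spearman's rho 0.87 (permutation p = 0.00034, adjusted p = 0.00516), where 1e-05 is the smallest p that the permutations can give. With the 2 tumors farthest from the median of Abca1 left out (control replicate 3 and bexarotene replicate 1), r was 0.96, and with each group's mean removed it was 0.95. Mylip followed both. For Abca1 and Mylip, Pearson's r was 0.90 (permutation p = 0.00022, adjusted p = 0.00396) and Spearman's rho 0.94 (permutation p = 6e-05, adjusted p = 0.00216), with r = 0.87 without the 2 farthest tumors. For Abcg1 and Mylip, Pearson's r was 0.82 (permutation p = 0.00134, adjusted p = 0.0125) and Spearman's rho 0.87 (permutation p = 0.00043, adjusted p = 0.00516), with r = 0.86 without the 2 farthest. Apoe followed Abca1 more loosely: Pearson's r was 0.80 (permutation p = 0.00139, adjusted p = 0.0125) and Spearman's rho 0.81 (permutation p = 0.00218, adjusted p = 0.0196), falling to r = 0.65 without the 2 farthest tumors. Apoe did not pass with Abcg1 (r = 0.70, adjusted permutation p = 0.0517) or with Mylip (r = 0.68, adjusted permutation p = 0.063).

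No positive relation between a lipogenic gene and this set passed with all tumors. Their 6 mutual relations were all positive (0.41 to 0.76), but 1 of 6 passed. For Srebf1 and Lpcat3, Pearson's r was 0.76 (permutation p = 0.00431, adjusted p = 0.0259) and Spearman's rho 0.75 (permutation p = 0.00696, adjusted p = 0.0501), with r = 0.74 without the 2 farthest tumors. Abca1 against Srebf1 gave r = -0.18 (permutation p = 0.58), and Scd1 against Scd2 r = 0.41 (permutation p = 0.185). For Mylip and Scd2 the relation was inverse: Pearson's r was -0.77 (permutation p = 0.00356, adjusted p = 0.0256) and Spearman's rho -0.66 (permutation p = 0.0221, adjusted p = 0.0882). Without the 2 farthest tumors, control replicate 2 and bexarotene replicate 4, r was -0.48. With each group's mean removed r was -0.80, and with 1 tumor left out at a time it ran from -0.83 to -0.66. Without bexarotene replicate 1, the related pairs were 3 of 36, the pairs among Abca1, Abcg1 and Mylip, while Abca1 with Apoe (0.76), Srebf1 with Lpcat3 (0.69) and Mylip with Scd2 (-0.73) no longer passed. Each r between a lipogenic gene and Abca1, Abcg1, Mylip or Apoe was higher without that tumor. Abcg1 with Scd1 went from 0.45 to 0.56 and Srebf1 with Apoe from -0.14 to 0.40, so the separation of the lipogenic genes rested in part on it. Of the 8 pairs that hold Smpdl3a, 0 passed with all tumors.

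**Figure D4:**
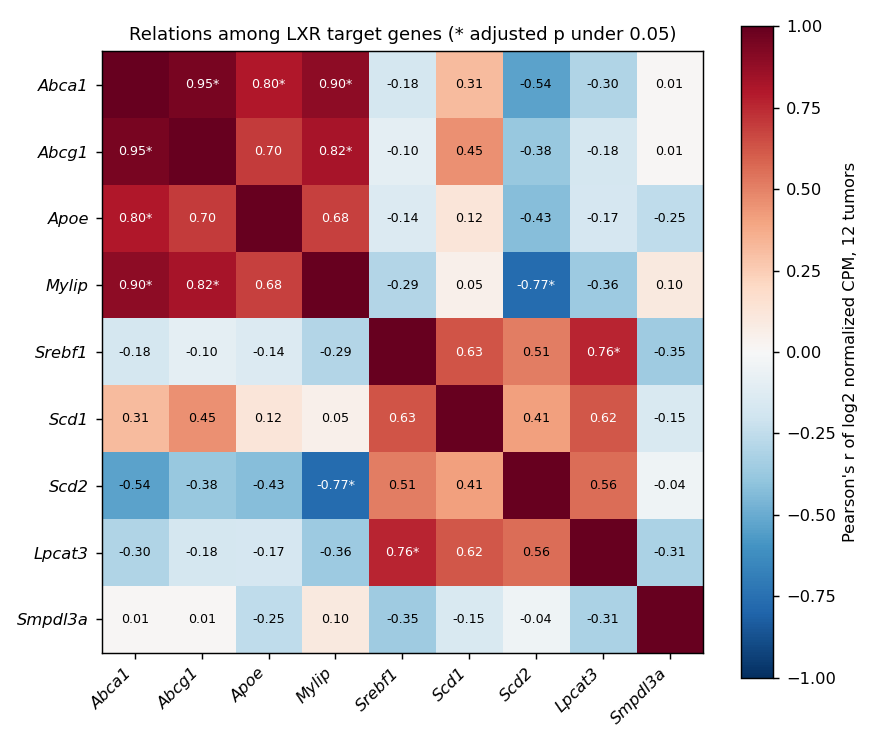
Pearson's r between each pair of the 9 genes over 12 tumors, from log2 normalized CPM, with asterisks for an adjusted permutation p under 0.05. Abca1, Abcg1, Apoe and Mylip form a positive block (0.68 to 0.95), and Srebf1, Scd1, Scd2 and Lpcat3 are related to them at r from -0.77 to 0.45.

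The transporter set also moved with the macrophage markers. The summed level of 9 macrophage markers (Adgre1, Csf1r, Cd68, Cd14, Fcgr1, Mrc1, C1qa, C1qb and C1qc, each with at least 55 reads in every tumor) ran from 204 to 711 CPM in control, 234 to 600.4 CPM in MSU-42011 and 264 to 1652 CPM in bexarotene tumors. Of 36 relations between the 9 genes and 4 marker sums (macrophage, adipocyte, fibroblast and luminal epithelial), 3 passed, all with the macrophage sum. For Apoe, Pearson's r was 0.94 (permutation p = 2e-05, adjusted p = 0.00072) and Spearman's rho 0.94 (permutation p = 3e-05, adjusted p = 0.00108), and r was 0.90 without the 2 farthest tumors (bexarotene replicate 1 and control replicate 2). For Abca1, Pearson's r was 0.83 (permutation p = 0.00031, adjusted p = 0.00558) and Spearman's rho 0.85 (permutation p = 0.00086, adjusted p = 0.0155), with r = 0.81 without the same 2 tumors. For Mylip, Pearson's r was 0.76 (permutation p = 0.0031, adjusted p = 0.0372) and Spearman's rho 0.79 (permutation p = 0.00343, adjusted p = 0.0412), with r = 0.71 without them. Abcg1 did not pass (Pearson's r was 0.69 (permutation p = 0.0105, adjusted p = 0.0756) and Spearman's rho 0.76 (permutation p = 0.00643, adjusted p = 0.0579)), and it gave r = 0.81 without bexarotene replicate 1. With all tumors the lipogenic genes showed no positive relation, at r = -0.36 for Srebf1, -0.05 for Scd1, -0.65 for Scd2 and -0.38 for Lpcat3, and 0 of these 4 passed. Without bexarotene replicate 1, r was 0.12 for Srebf1, 0.26 for Scd1, -0.59 for Scd2 and -0.08 for Lpcat3, so the sign turned for Srebf1 and Scd1. In bexarotene against control tumors, 8 of the 9 macrophage markers had higher estimates (median log2 fold change 0.82), against 0 of 9 without bexarotene replicate 1 (median -0.26). With MSU-42011, 1 of 9 was higher (median -0.14). Cd14 was the marker that was lower with bexarotene in all tumors, at -1.33, and it was at -1.26 with MSU-42011. Its control mean of 124 CPM (24.5 to 310) was the highest of the 9 markers, within a mean control sum of 464 CPM. The part of the macrophage markers in the levels of Abca1, Apoe and Mylip was not tested.

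**Figure D5:**
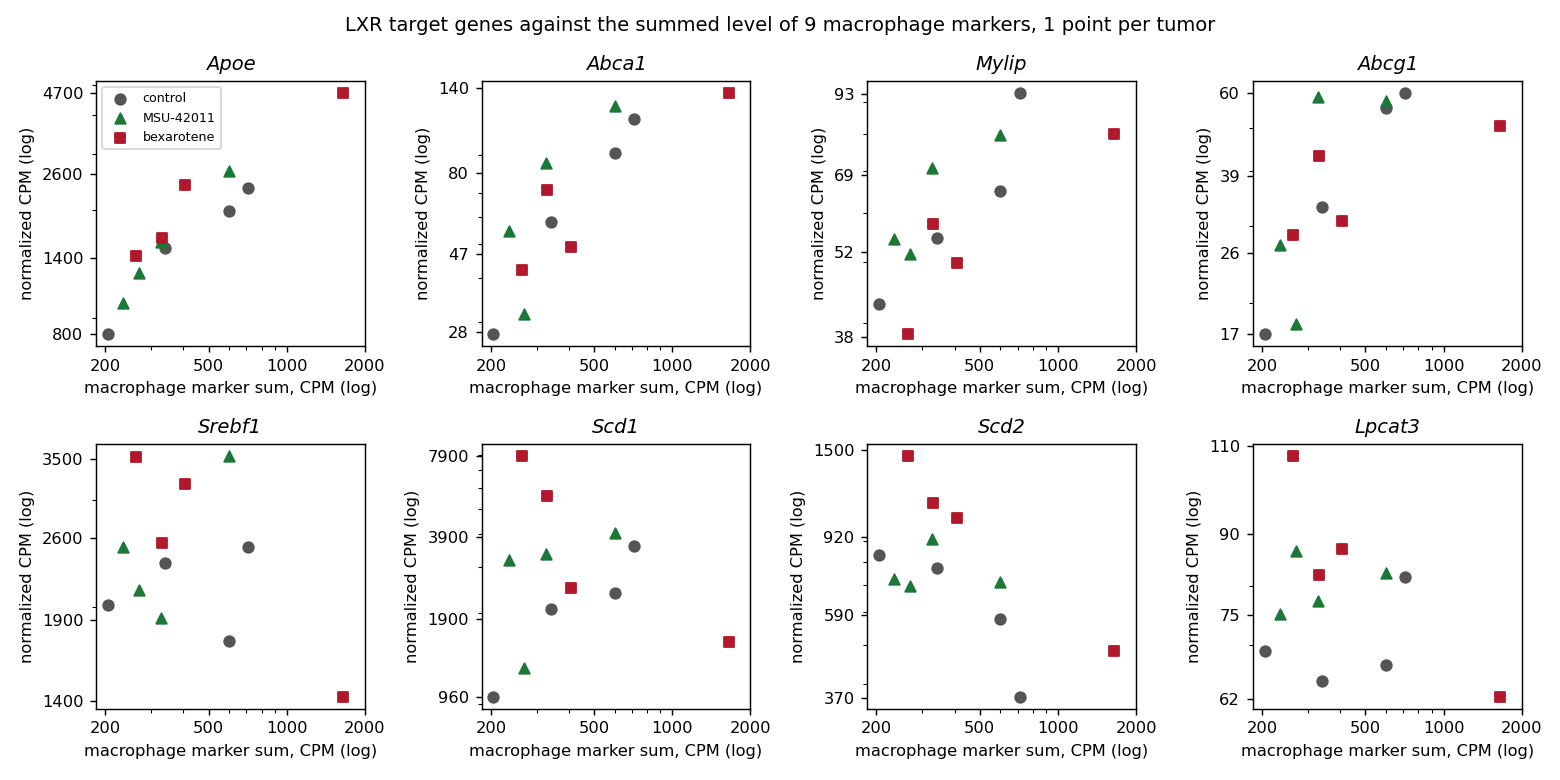
Normalized CPM of 8 of the genes against the summed CPM of 9 macrophage markers, 1 point per tumor, both axes on a log scale. Apoe rises with the marker sum along nearly 1 line through all 3 groups, and Abca1, Mylip and Abcg1 rise with more scatter. The lipogenic genes in the lower row do not rise with all tumors included. The point at the far right is bexarotene replicate 1.

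The genes nearest to each of the 9 in pattern, out of all 15504 tested, are given by r over the 12 tumors as a description. Apoe was closest to Lair1 (0.96), an inhibitory receptor of leukocytes, and to C1qb (0.96), a complement subunit made by macrophages. Abca1 was closest to Tgfbr1 (0.97), a TGF-β receptor, and to Ctbs (0.96), a lysosomal chitobiase. Abcg1 was closest to Galnt15 (0.96), a glycosyltransferase, and to Abca1 itself (0.95). Mylip was closest to Zfp36l2 (0.93), an RNA-binding protein that destabilizes transcripts, and to Cybc1 (0.92), a chaperone of the phagocyte oxidase. Among the lipogenic genes, Scd2 was closest to Tmem41b (0.89) and to Dhcr7 (0.89), the last enzyme of cholesterol synthesis. Scd1 was closest to Acsl3 (0.83), which activates fatty acids, and Klrg2 (0.82). Srebf1 was closest to Abhd6 (0.89), a monoacylglycerol lipase, and Dnajb12 (0.85). Lpcat3 was closest to Pdzk1ip1 (0.89) and Snupn (0.87), and Smpdl3a to Mfsd6 (0.92) and Tollip (0.91).

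The rest of the pathway was read from lists of related genes. Of 17 other LXR targets, 12 passed the filter and 0 were called in any comparison by edgeR's quasi-likelihood test with Benjamini-Hochberg adjustment. With bexarotene, 10 had higher and 2 lower estimates, with a median log2 fold change of 0.46 against 0.03 over all genes. The split was 7 and 5 without bexarotene replicate 1, and the median was 0.13 against 0.0061. With MSU-42011 the split was 6 and 6, with a median of 0.03. The most abundant were Apoc1, an apolipoprotein next to Apoe in the genome (mean 739 FPKM), Fasn (148 FPKM) and Elovl5, a fatty acid elongase (121 FPKM). Pltp, the phospholipid transfer protein, ran from 1.71 to 9.02 CPM in control, 2.68 to 7.58 in MSU-42011 and 3.19 to 133 in bexarotene tumors. Its log2 fold change with bexarotene was 2.59 (unadjusted p = 0.0269 from edgeR), which came to 0.21 without bexarotene replicate 1. Pnpla3, a lipase of lipid droplets, was low (2 to 58 reads). It was higher in each bexarotene tumor (1.50 to 2.14 CPM) than in any control (0.0947 to 1.31) or MSU-42011 tumor (0.163 to 0.838). Of all genes, 2.03% and 1.17% had ranges that did not overlap in these comparisons. The unadjusted p from edgeR was 0.0749 against control and 0.0296 against MSU-42011 (adjusted p = 0.81 and 0.997 by edgeR with Benjamini-Hochberg adjustment). Its log2 fold change with bexarotene was 1.16, and 1.02 without bexarotene replicate 1 (unadjusted p = 0.137 from edgeR).

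Like the lipogenic genes of the 9, Fasn had a bexarotene estimate that was higher without bexarotene replicate 1. Its relations to those genes and to Abca1 were not tested. Fasn ran from 332 to 551 CPM in control, 434 to 608 CPM in MSU-42011 and 337 to 933 CPM in bexarotene tumors. Its log2 fold change with bexarotene was 0.55 (unadjusted p = 0.0738 from edgeR), and 0.76 without bexarotene replicate 1 (unadjusted p = 0.00663 from edgeR). Without that tumor, Acaca, the acetyl-CoA carboxylase (0.56, unadjusted p = 0.0105), was the other of 12 that passed an unadjusted p of 0.05. Acaca was also higher in each MSU-42011 tumor (94.7 to 112 CPM) than in any control (79.6 to 90.5 CPM), as were 1.16% of all genes. Its log2 fold change with MSU-42011 was 0.28 (unadjusted p = 0.219 from edgeR). All bexarotene tumors ran from 71.2 to 179 CPM. Among 10 SREBP targets, 9 passed the filter, and 0 were called by edgeR or had an unadjusted p under 0.05 in any comparison of all tumors. The most abundant were Me1, Acly and Insig1, with log2 fold changes with bexarotene of -0.14, 0.06 and 1.01 (-0.03, 0.15 and 1.26 without bexarotene replicate 1). Without bexarotene replicate 1, 8 of 9 were higher (median 0.34, against 0.0061 over all genes), with Insig1, the brake on SREBP processing, and Elovl6 (0.67), a fatty acid elongase, at an unadjusted p of 0.0216 and 0.0366 from edgeR. Acaca and Elovl6 were named after their values were seen. These are 2 of 12 and 2 of 9 genes where 1.58% of all genes were higher at that threshold, and all 4 had an adjusted p of 0.978 by edgeR with Benjamini-Hochberg adjustment.

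The other lists were quieter. Of 9 lipoprotein receptors and cholesterol-handling genes, all were tested and 0 were called. Cd36, a fatty acid receptor, Npc2, a lysosomal cholesterol carrier, and Scarb1, the HDL receptor, were the most abundant, with log2 fold changes of 0.56, 0.04 and -0.22 with MSU-42011 and of -0.47, 0.17 and -0.10 with bexarotene (-0.33, 0.16 and -0.02 without bexarotene replicate 1). Lrp1, a receptor for APOE-bearing particles, had an estimate of 2.35 with bexarotene (unadjusted p = 0.0149 from edgeR) that came to 0.38 without bexarotene replicate 1. The oxysterol enzymes, which make or clear ligands of LXR, averaged 1.37 (Ch25h), 5.84 (Cyp27a1) and 11.1 FPKM (Cyp46a1) over all tumors. 3 of 4 passed the filter, 0 were called by edgeR or had an unadjusted p under 0.05, and Ch25h, Cyp27a1 and Cyp46a1 had log2 fold changes of -0.42, 0.04 and 0.17 with MSU-42011 and of 0.53, 0.45 and 0.54 with bexarotene. The latter were -0.77, 0.06 and 0.67 without bexarotene replicate 1, so that the sign of Ch25h turned. Of 6 paralogues of the 9 genes, 5 passed the filter, and 0 were called by edgeR or had an unadjusted p under 0.05. Srebf2, the cholesterol branch of the SREBP family, changed by 0.08 with MSU-42011 and by 0.17 with bexarotene in the estimates, Scd3 by 0.0081 and 0.12, and Smpdl3b by -0.39 and -0.15. Their bexarotene estimates were 0.29, 0.18 and -0.13 without bexarotene replicate 1.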

How the data were processed

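RNA was extracted from frozen mammary tumor tissue with a column kit, and poly(A) libraries were made from 1 μg of total RNA and sequenced by a commercial provider. Per the labels, the submitters' processing notes name STAR 2.6.1d, featureCounts 1.5.0-p3 and DESeq2, with no role or settings. The authors deposited a table of raw counts, whole numbers per gene and tumor without normalization, and a table of FPKM, in which the authors divided each count by the tumor's total and by a gene length. This length was at or below the listed one and equal in all tumors. The genome build and strand setting were not given in the sources used here.

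Counts were normalized by TMM and tested with edgeR 4.0.16 (R 4.3.3) in 1 quasi-likelihood model with a mean per group, after filterByExpr, with Benjamini-Hochberg adjustment over 15504 genes and a threshold of 0.05. Normalized CPM are counts over TMM-scaled totals, on the usual CPM scale, and log2 values for relations and exact tests used a pseudocount of 0.5. The main test differs from DESeq2, which the study used; DESeq2 1.42.0, RLE scaling, no filter or at least 10 counts in every tumor, robust fits, a replicate block, pairs of groups alone, limma 3.58.1 on log2(FPKM + 1) and log2(FPKM + 0.1), and leaving out each tumor were alternatives. Single genes were compared by exact two-sided permutation of 4 against 4 tumors (smallest p 0.0286). Relations used 100000 permutations of the 12 tumors, with Benjamini-Hochberg adjustment within each family of 36. The scripts were tested on simulated counts. Intervals and p-values measure the spread between tumors, which came from separate mice per the study's methods.

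Tumors were grouped by their labels, and none was left out of the main fit. Estimates without bexarotene replicate 1 are given beside it because that library stood apart. The 9 genes, the lists of related genes and the cell type markers were chosen with earlier results of these data known. Genes of these lists that are not reported here were left out of the counts and sums. Named genes were the 9, the receptors and a corepressor, and from the other lists the 3 with the highest mean FPKM and those with an unadjusted p under 0.05 in any comparison. For each of the 9, the 2 genes with the highest r were also named. Sequences came from RefSeq promoter windows (GRCm38.p6), and shared 50-base words from GENCODE M21 transcripts.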

Additional observations from a re-analysis of the deposited data

Results flagged for a closer look

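In 1 of 27 groups examined (9 genes in 3 diets), a tumor lay far from the other 3. Scd2 in MSU-42011 replicate 1 measured 911 CPM, while the other 3 MSU-42011 tumors lay between 696 and 723 CPM. Chance alone marks about 1 in 20 such groups. The value lies above the control tumors (372 to 830.2 CPM) and below bexarotene replicates 2 to 4, and its cause was not tested.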

How the results depend on the processing

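No gene of the 9 was called in any comparison under any alternative run, leave-one-out fits included, so the counts of calls were 0 throughout. The directions of small estimates were less stable. Without the filter on low counts, Abca1 between the agonists was 0.0094. With limma on log2(FPKM + 1), Abcg1 was 0.0149 with MSU-42011, 0.0385 with bexarotene and -0.0236 between the agonists, and Apoe was 0.0423 with MSU-42011; the filter at an FPKM of 1 gave the same values. With log2(FPKM + 0.1), these 4 values were 0.0149, 0.0481, -0.0332 and 0.0423.

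With the replicate block, 0 of the 9 genes and 0 of all genes were called, and Abca1 was -0.0355 with MSU-42011, -0.11 with bexarotene and 0.0706 between the agonists. Same-numbered tumors deviated together at r = -0.39 to 0.38 (median 0.06) and differently numbered ones at -0.38 to 0.39 (median -0.03). What the number stands for was not given in the sources used here, and a shared batch was not tested.

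Leaving out 1 tumor at a time, estimates with MSU-42011 (log2) ran from -0.34 to 0.33 for Abca1, -0.30 to 0.21 for Abcg1, -0.37 to 0.18 for Apoe, -0.15 to 0.24 for Mylip and -0.0804 to 0.0947 for Smpdl3a. With bexarotene it ran from -0.42 to 0.34 for Abca1, -0.37 to 0.12 for Abcg1 and -0.40 to 0.0610 for Mylip. Between the agonists it ran from -0.38 to 0.45 for Abca1, -0.16 to 0.32 for Abcg1, -0.20 to 0.0632 for Lpcat3 and -0.29 to 0.0861 for Srebf1. The bexarotene estimates of Scd1 (0.51 to 1.28), Scd2 (0.45 to 0.91), Lpcat3 (0.13 to 0.39), Srebf1 (0.14 to 0.52) and Apoe (0.13 to 0.83) stayed above 0. The number of related pairs among the 9 genes was 3 to 8 of 36 (3 without bexarotene replicate 1), and that with marker sums 2 to 4 of 36. These alternatives for relations were chosen after seeing the data. With Spearman's rho, 4 and 3 passed. With 4 tumors per group, the spread between tumors and not the depth limits these comparisons.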
